A study of Homo sapiens with 9 samples.

Results

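The pre-mRNA splicing machinery was followed through 68 protein genes: the SR proteins (symbols starting with SRSF), the snRNP proteins (SNRP), the SF3a and SF3b subunits (SF3A, SF3B), the PRPF factors, the hnRNP proteins (HNRNP) and the U2AF pair (U2AF1, U2AF2). They were taken by symbol from 184 matching names. SRSF5 and SRSF11, 106 pseudogenes, 2 antisense names, 5 divergent-transcript names and 1 further pseudogene (SRSF8BP) were left out, and the choice to drop the last 6 was made here because they do not name splicing proteins. The 68 genes stand among 37196 genes with at least 1 count in some library. Of the 68, 66 passed the expression filter; HNRNPCL1 and HNRNPCL3 did not, with mean levels under 0.1 TPM (a level scaled by transcript length and library) in every group.

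The cells were hTERT-MSC, a telomerase-immortalised line of human adipose-derived mesenchymal stem cells. Starved cells were settled for 2 h on inserts with 3 µm pores and drawn towards 50 ng/mL PDGF-BB, a growth factor, for 1 h. Protrusions scraped from the lower face gave 3 pseudopodia libraries, the upper face gave 3 cell body libraries, and 3 libraries are of whole cells, labelled with that treatment too but with no separate account of how they were collected. Every library is thus of 1 immortalised line under PDGF-BB, and no untreated or unmigrated control enters here. Whether the 3 libraries of a group stem from different cultures is not stated in the labels. The p-values therefore refer to the spread among these libraries alone, which may be technical.

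Splicing removes introns from pre-mRNA in the nucleus. Small nuclear ribonucleoproteins (snRNPs), each built on a ring of Sm proteins, assemble with SF3a, SF3b and PRPF proteins into the spliceosome, while U2AF marks the end of the intron. SR proteins bind exonic sequences and mostly favour their inclusion, and hnRNP proteins coat the transcript and often oppose it. Several of these proteins shuttle to the cytoplasm and take part in mRNA export, transport and translation. What is measured below is the mRNA that encodes them, not the proteins and not splicing.

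Library totals ran from 55469030 to 83894938 counts. The 6 mesenchymal stem cell markers were all above 1 TPM, their summed level being 8376 to 9918 TPM in pseudopodia, 15314 to 17380 in cell bodies and 16803 to 17244 in whole cells, and 1 of 4 adipocyte markers was at 0 in every library with the other 3 summing to at most 1.38 TPM. Of 5 epithelial markers 3 passed 1 TPM, summing to 212 to 280.4 TPM in pseudopodia, 250.3 to 295 in cell bodies and 149 to 158 in whole cells. Endothelial markers (4 of 5 over 1 TPM) summed to 38.8 to 50.0, 59.5 to 84.9 and 66.5 to 71.7 TPM, and haematopoietic markers (2 of 6) to 30.9 to 36.6, 55.8 to 61.6 and 40.3 to 41.7 TPM. Long noncoding RNAs known to stay in the nucleus took 0.0258 ± 0.00194% of counts in pseudopodia, 0.0422 ± 0.00389% in cell bodies and 0.101 ± 0.00201% in whole cells (SD, n = 3 each). Mitochondrial mRNAs took 6.02 ± 0.338%, 2.84 ± 0.228% and 4.67 ± 0.277%. The part of these differences in the results below was not tested. In bulk fractions, fewer contributing cells of a kind and less RNA per cell cannot be told apart.

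By TPM, which allows genes to be compared, HNRNPA1 was the highest of the 68 with a mean of 536 TPM over the 9 libraries, rank 232 among all genes. SF3B5 followed at 304 TPM, HNRNPK at 281, HNRNPUL1 at 230.2 and HNRNPF at 228. In all, 19 of the 68 genes stood at 100 TPM or more, 42 between 10 and 100, 4 between 1 and 10, and 3 under 1. The order changed between compartments: HNRNPA1 held 921 ± 29.03 TPM in pseudopodia and HNRNPK 191 ± 4.92, whereas in cell bodies the values were 355 ± 14.0 and 358 ± 31.8 (SD, n = 3 each). The cell body levels of these 2 genes overlapped, and their pseudopodia levels did not.

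Together the 68 genes took 0.744 ± 0.00387% of counts in pseudopodia, 0.665 ± 0.0144% in cell bodies and 0.607 ± 0.00580% in whole cells. The 3 groups did not overlap, which gives the smallest p that an exact two-sided permutation test of 3 against 3 allows, 0.1, for each pair. The place of pseudopodia at the top rested on 1 gene and its copy: without HNRNPA1 and its copy HNRNPA1L3 the remaining genes took 0.573 ± 0.00888%, 0.607 ± 0.0120% and 0.554 ± 0.00413%, with cell bodies highest (exact p = 0.1 for each pair). By role, hnRNP mRNAs took 0.478 ± 0.0123% in pseudopodia and 0.376 ± 0.00778% in cell bodies. Without HNRNPA1 and HNRNPA1L3 the hnRNP shares were 0.307 ± 0.0145% and 0.317 ± 0.00543%, with overlapping groups (exact p = 0.3). SR mRNAs took 0.0454 ± 0.00347% and 0.0612 ± 0.00437%. The groups overlapped for Sm core mRNAs, which took 0.0240 ± 0.00121% in pseudopodia and 0.0236 ± 0.00314% in cell bodies, with exact p = 0.9.

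The first comparison, pseudopodia against cell body, asks which splicing mRNAs are relatively more or less abundant in protrusions. Of 66 genes, 16 were higher in pseudopodia, 15 lower and 35 not called by edgeR's quasi-likelihood test at a Benjamini-Hochberg adjusted p under 0.05. These are 24.2% and 22.7%, beside 18.6% higher and 19.9% lower among all 19426 genes tested, so the shares lie near the background. Their median log2 fold change was 0.04, beside -0.05 for all genes, and 5 were called higher and 4 lower by at least 2-fold, beside 8.7% and 12.3% of all genes. The split depended on the unit and model: 9 were higher and 27 lower with limma on log2(TPM + 0.1), where the median of all genes shifted to -0.31, and 25 were higher and 10 lower with GC and length offsets. With DESeq2 size factors, a change of scaling alone, 18 were higher and 14 lower.

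**Figure D1:**
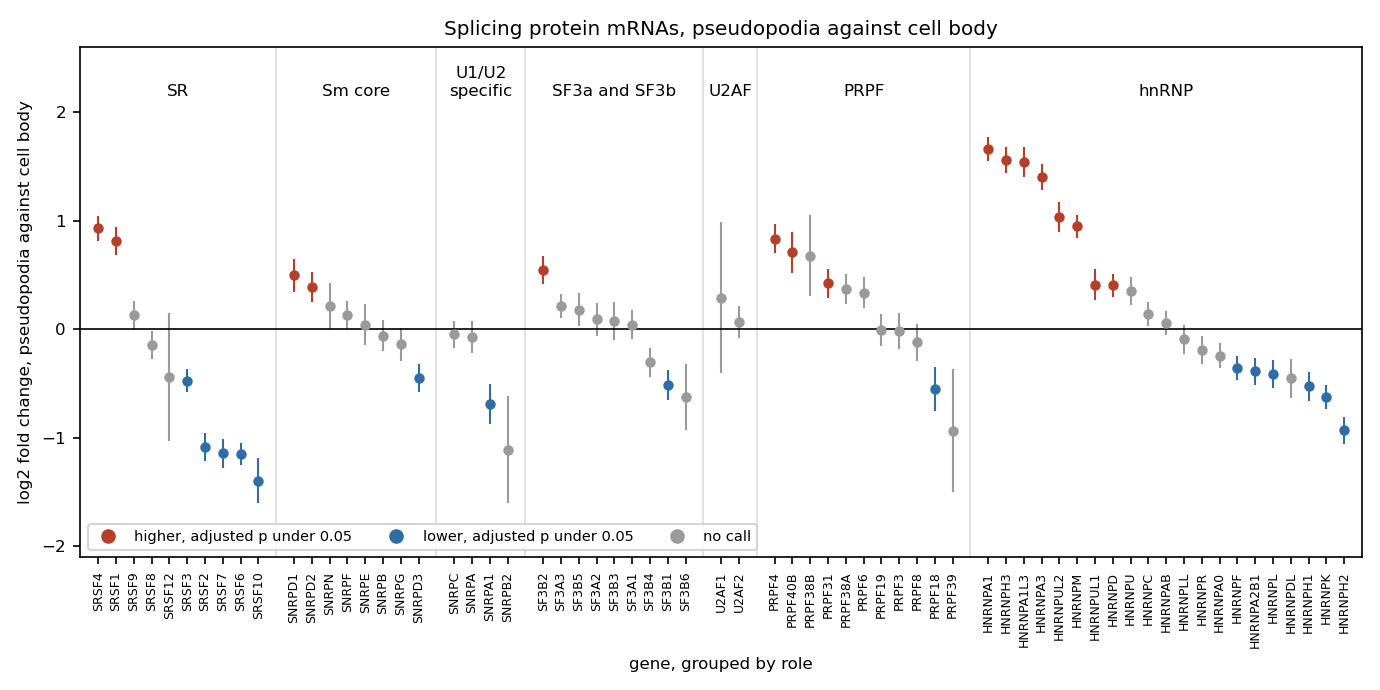
Log2 fold change of 65 splicing protein mRNAs in pseudopodia against cell body (vertical axis), by gene and role (horizontal axis), as edgeR estimate ± SE (3 libraries per group). The SE was derived from the fold change and the F statistic of the fit over all 9 libraries, whole cells included. Red points are higher and blue lower at adjusted p under 0.05, grey points have no call; HNRNPA1 at 1.66 and SRSF10 at -1.40 are the ends.

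Of the 31 called genes, 15 kept direction and call in all 21 alternative settings, leave-one-out fits included. Higher in pseudopodia were HNRNPA1, HNRNPA1L3, HNRNPA3, HNRNPH3, HNRNPM, HNRNPUL2, PRPF4, SRSF1 and SRSF4, and lower were HNRNPH1, HNRNPH2, SRSF2, SRSF6, SRSF7 and SRSF10.

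Among the hnRNP proteins 8 of 21 genes were higher, 6 lower and 7 not called. HNRNPA1 (ENSG00000135486, chr12:54280193-54287088, GRCh38), a shuttling hnRNP that represses exons and binds many mRNAs, stood at 1847, 1685 and 1931 CPM in the 3 pseudopodia libraries (CPM being a gene's count scaled to library size with edgeR's TMM factors). The cell body libraries held 562, 573 and 591 CPM and the whole cell libraries 458, 490.2 and 477. All pseudopodia values lay above all others, and the log2 fold change against cell body was 1.66 ± 0.11 (SE; 3.17-fold; edgeR adjusted p = 1.1e-06). HNRNPA1L3, a retrocopy on chromosome 16, changed alike (log2 fold change 1.54 ± 0.14), but 55.7% of the 31-base words in its transcripts also occur in HNRNPA1, so its reads are not independent evidence.

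HNRNPA3 (chr2:177212563-177223958), a close relative implicated in cytoplasmic mRNA transport, gave 148, 153 and 135 CPM in pseudopodia, 50.3, 54.9 and 59.8 in cell bodies and 48.3, 48.4 and 46.8 in whole cells. Its log2 fold change in pseudopodia against cell body was 1.40 ± 0.12 (edgeR adjusted p = 4.84e-06). HNRNPA2B1, another A/B protein and a reader of transport signals in mRNA, went the other way with 202, 218 and 164 CPM in pseudopodia against 257, 249 and 256 in cell bodies. The groups did not overlap, but the difference was small (log2 fold change -0.39 ± 0.12, edgeR adjusted p = 0.0293) and its call was lost in 11 of 21 settings, among them GC and length offsets (-0.06, adjusted p = 0.734) and leaving out any library except pseudopodia 2 or 3 (adjusted p from 0.055 to 0.0888). Exons of CBX3 overlap HNRNPA2B1 on the other strand at 30.3% of its count.

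The H family split in the same manner. HNRNPH3 (chr10:68331174-68343191), the shortest protein of this G-tract binding family, gave 145, 159 and 131 CPM in pseudopodia, 46.4, 49.5 and 51.7 in cell bodies and 58.1, 59.5 and 62.5 in whole cells (log2 fold change against cell body 1.56 ± 0.12, edgeR adjusted p = 2.85e-06). HNRNPH1 gave 96.2, 95.2 and 71.9 CPM in pseudopodia and 118, 127 and 135 in cell bodies (log2 fold change -0.53 ± 0.13, edgeR adjusted p = 0.00922). For HNRNPH2 the values were 46.9, 44.5 and 37.7 and 82.1, 81.3 and 83.3 CPM (log2 fold change -0.93 ± 0.12, edgeR adjusted p = 0.000134). None of the 3 genes had overlapping groups, and replicate 3 was the lowest of the pseudopodia libraries for each. Exons of RUFY2 overlap HNRNPH3 on the other strand at 12.3% of its count. HNRNPF, the remaining family member tested, was lower at -0.36, a call lost in 8 of 21 settings, 5 of them leave-one-out fits (adjusted p from 0.0584 to 0.107).

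HNRNPM, a nuclear matrix protein that regulates exon choice, gave 228, 240.2 and 247 CPM in pseudopodia and 128, 121 and 122 in cell bodies (log2 fold change 0.95 ± 0.11, edgeR adjusted p = 3.9e-05). HNRNPUL2, a relative of the scaffold protein HNRNPU, gave 63.0, 60.1 and 81.2 against 33.6, 32.5 and 33.8 CPM (log2 fold change 1.03 ± 0.14, edgeR adjusted p = 0.000161). HNRNPU itself, at 323, 395 and 289.5 against 265, 278 and 245.3 CPM, had no call although its groups did not overlap (log2 fold change 0.35 ± 0.13, edgeR adjusted p = 0.0546). HNRNPU was called higher in 6 of 21 alternatives (adjusted p from 0.00214 to 0.0458). Whether the fold changes of HNRNPM and HNRNPUL2 differ from that of HNRNPU was not tested. As a description, the TPM ratio of HNRNPUL2 to HNRNPU was 0.814, 0.634 and 1.17 in pseudopodia and 0.529, 0.487 and 0.574 in cell bodies.

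HNRNPK, a poly(C) binding protein with roles in transcription and translation, gave 325, 311 and 325 CPM in pseudopodia and 452, 498 and 529.7 in cell bodies. All 3 pseudopodia values were lower, with a log2 fold change of -0.62 ± 0.11 (edgeR adjusted p = 0.000956), but with GC and length offsets it was -0.06 (adjusted p = 0.836). HNRNPD, the AU-rich element binding protein AUF1, was higher (0.40 ± 0.11), and HNRNPL, which binds CA repeats, was lower (-0.41 ± 0.13). The call of HNRNPD ended on the TPM scale, with only the 6 libraries compared and without cell body replicate 2 (adjusted p = 0.0551), and that of HNRNPL in 6 of 9 leave-one-out fits. HNRNPC, a core protein of nuclear hnRNP particles, was not called (0.14 ± 0.11, adjusted p = 0.336), nor were HNRNPA0, HNRNPAB, HNRNPDL, HNRNPLL and HNRNPR. HNRNPUL1 was higher at 0.41, with exons of TGFB1 on the other strand holding 82.9% of its count and its call lost in 7 of 9 leave-one-out fits.

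**Figure D2:**
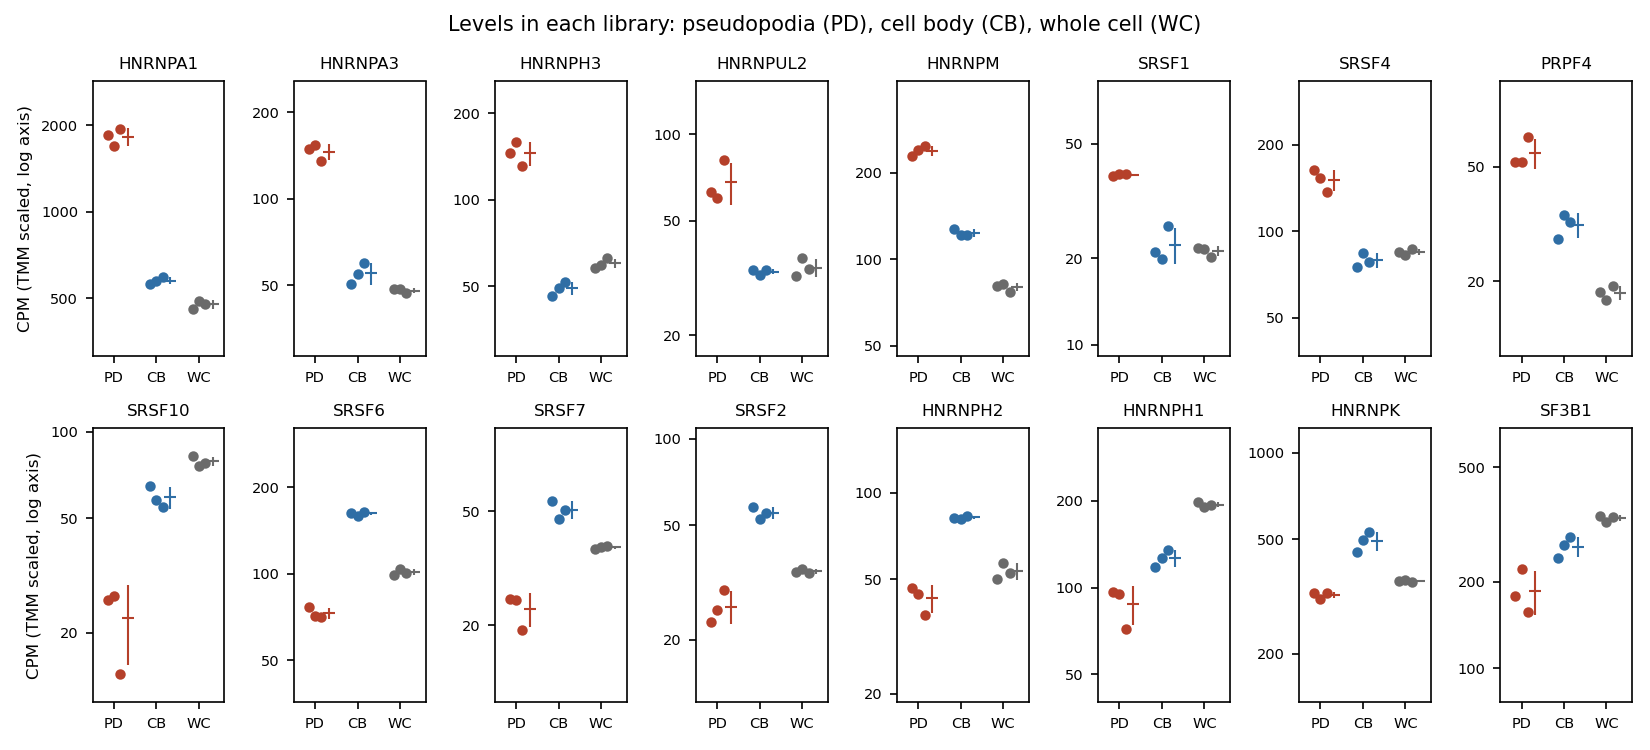
TMM-scaled CPM (log vertical axis, each panel spanning the same range of folds) of 16 genes in the 3 pseudopodia (PD), 3 cell body (CB) and 3 whole cell (WC) libraries. Points are libraries and the line beside them is mean ± SD; the top row shows genes higher in pseudopodia than in cell bodies, such as HNRNPA1 (lowest pseudopodia library 1685, highest cell body library 591), and the bottom row genes that are lower, such as SRSF6 (76.8 against 159).

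Among the SR proteins 2 of 10 genes were higher, 5 lower and 3 not called. SRSF10 (ENSG00000188529, chr1:23964804-23980927), an SR protein that represses splicing when dephosphorylated, had the lowest fold change of all 66 genes. Its libraries gave 26.0, 26.9 and 14.4 CPM in pseudopodia, 64.9, 58.0 and 54.7 in cell bodies and 82.1, 76.3 and 78.2 in whole cells. The log2 fold change against cell body was -1.40 ± 0.21 (SE; 2.64-fold lower; edgeR adjusted p = 0.000303), with pseudopodia replicate 3 the lowest library.

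By CPM, SRSF6, SRSF7 and SRSF2 were highest in cell bodies and lowest in pseudopodia, but the order of pseudopodia and whole cells turned for SRSF6 and SRSF7 with GC and length offsets (0.36 and 0.28 for pseudopodia against whole cell). SRSF6, an exon-inclusion factor, gave 76.8, 71.5 and 70.8 CPM in pseudopodia, 163, 159 and 164 in cell bodies and 99.5, 104 and 101 in whole cells (log2 fold change, pseudopodia against cell body, -1.15 ± 0.11, edgeR adjusted p = 9.26e-06). SRSF7, which also promotes mRNA export, gave 24.7, 24.6 and 19.3, 54.3, 47.0 and 50.4 and 37.0, 37.3 and 37.8 CPM in the same order (-1.14 ± 0.13, adjusted p = 5.3e-05). SRSF2, an SR protein that stays in the nucleus, gave 23.1, 25.4 and 29.7, 57.9, 52.5 and 55.3 and 34.3, 35.1 and 34.1 CPM (-1.08 ± 0.13, adjusted p = 5.62e-05). No 2 of the 3 groups overlapped in CPM for any of these genes. MFSD11 overlaps SRSF2 on the other strand and held 49.2% of its count.

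SRSF1 and SRSF4 went the other way. SRSF1 (chr17:58003360-58007346), the founding shuttling SR protein, gave 38.6, 39.0 and 39.3 CPM in pseudopodia, 21.0, 19.9 and 25.8 in cell bodies and 21.7, 21.6 and 20.2 in whole cells (log2 fold change against cell body 0.81 ± 0.13, edgeR adjusted p = 0.00056). SRSF4, a large SR protein close to SRSF6 in domain order, gave 163, 153 and 137, 75.4, 84.4 and 78.1 and 84.5, 83.1 and 86.6 CPM (0.93 ± 0.11, adjusted p = 7.84e-05). For both, cell body and whole cell libraries overlapped and the pseudopodia libraries stood above them. SRSF3, which couples splicing to export, was lower in pseudopodia at 71.0, 64.6 and 68.8 against 100.4, 93.2 and 90.2 CPM (-0.47 ± 0.11, edgeR adjusted p = 0.00527), but was 0.05 with GC and length offsets (adjusted p = 0.858). SRSF8, SRSF9 and SRSF12 were not called, the last at a mean of 0.138 TPM.

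Ratios of TPM within a library do not depend on library scaling, and 8 pairs of related genes, chosen after their values were seen, are given as a description. The ratio of HNRNPA1 to HNRNPA2B1 was 17.2, 14.6 and 22.2 in pseudopodia, 4.11, 4.33 and 4.34 in cell bodies and 3.16, 3.37 and 3.31 in whole cells. HNRNPH3 to HNRNPH1 stood at 2.67, 2.94 and 3.21, 0.692, 0.690 and 0.677 and 0.516, 0.551 and 0.571 in the same order. In both pairs the ratio in every pseudopodia library exceeded that in every other library by at least 3-fold. For SRSF4 to SRSF6 the means were 1.15 ± 0.0604 in pseudopodia, 0.272 ± 0.0199 in cell bodies and 0.464 ± 0.0188 in whole cells (SD, n = 3). SRSF1 to SRSF2 averaged 0.778 ± 0.0904, 0.207 ± 0.0290 and 0.316 ± 0.0104, and HNRNPA3 to HNRNPA2B1 1.45 ± 0.119, 0.417 ± 0.0369 and 0.338 ± 0.00448. Per length, HNRNPH3 exceeded HNRNPH1, and SRSF4 exceeded SRSF6, in all 3 pseudopodia libraries and in none of the 6 others.

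**Figure D3:**
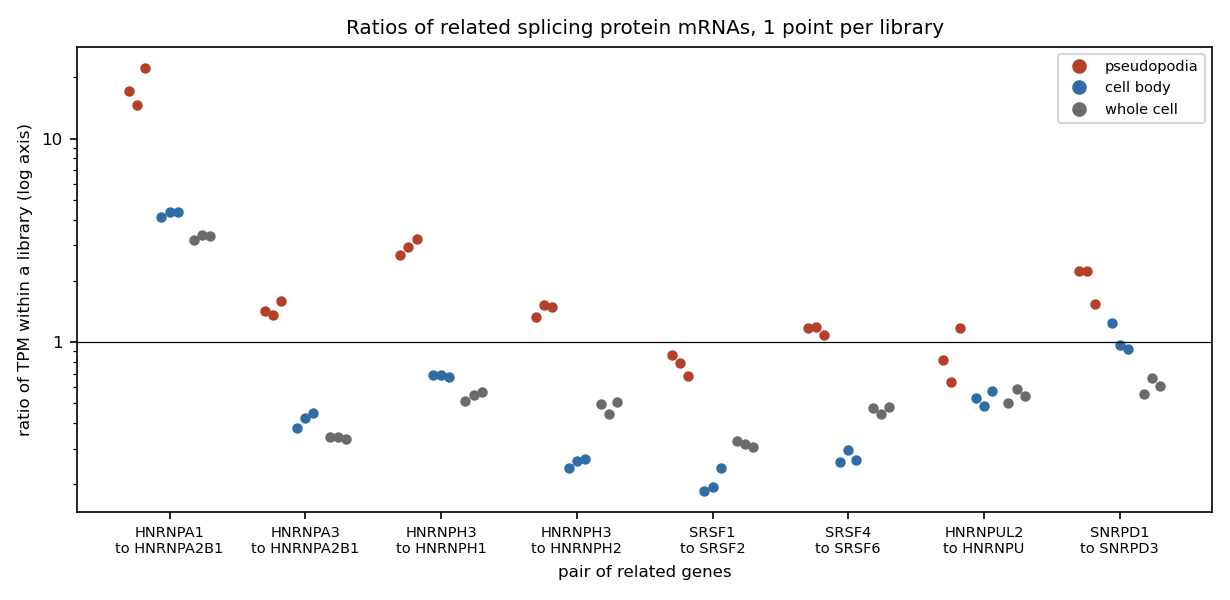
Ratio of TPM (log vertical axis) between related splicing genes (horizontal axis) within each of the 9 libraries, 1 point per library, coloured by group. The pseudopodia points lie above the cell body points in all 8 pairs, from 14.6 to 22.2 for HNRNPA1 to HNRNPA2B1.

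The core spliceosome came next. Of 8 Sm core genes, SNRPD1 (0.50 ± 0.15, edgeR adjusted p = 0.0226) and SNRPD2 (0.39 ± 0.14, adjusted p = 0.0436) were higher and SNRPD3 (-0.45 ± 0.13, adjusted p = 0.0172) lower. These 3 calls were fragile: those of SNRPD1 and SNRPD2 ended on the TPM scale and with only the 6 libraries compared (SNRPD2 also in DESeq2, adjusted p = 0.0501), and that of SNRPD3 without the low-count filter (adjusted p = 0.0681). On the other strand, GUCD1 held 559% of the count of SNRPD3 and QPCTL 14.1% of that of SNRPD2. Each of these 3 calls was also lost in leave-one-out fits, SNRPD1 without cell body 2 or 3 or pseudopodia 1 or 2 (adjusted p from 0.053 to 0.091), SNRPD2 in 7 of 9 fits, and SNRPD3 without cell body 2 or 3 or pseudopodia 1. SNRPB, which with SNRPN encodes the B ring position, gave 54.96, 51.6 and 68.0 against 68.0, 58.2 and 55.8 CPM and was not called. SNRPN read 1.69, 1.29 and 1.68 against 1.54, 1.09 and 1.38 CPM, and its exons overlap SNHG14 and SNURF on the same strand, SNHG14 holding 3182% of its count. Of the U1 and U2 proteins, SNRPA1 was lower (-0.69 ± 0.18, adjusted p = 0.0117; without cell body replicate 1, adjusted p = 0.0515), and SNRPB2 ranged from 4.13 to 23.5 CPM across pseudopodia libraries, with no call by edgeR but a call of lower in 6 of 21 alternatives (adjusted p from 0.00758 to 0.0362).

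In the SF3a and SF3b complexes, which hold the branch site, 1 of 9 genes was higher and 1 lower. SF3B2 gave 352, 332 and 446 CPM in pseudopodia and 254, 259 and 263 in cell bodies (0.54 ± 0.13, edgeR adjusted p = 0.00633), and its call ended on the TPM scale (0.24, adjusted p = 0.0702). SF3B1, the subunit that grips the branch site and is often mutated in blood cancers, gave 178, 221 and 157 against 242, 268 and 285 CPM (-0.52 ± 0.14, adjusted p = 0.0129). Neither gene had overlapping groups, but SF3B1 was -0.13 with GC and length offsets (adjusted p = 0.492) and lost its call without cell body replicate 3 (adjusted p = 0.057). SF3A1 and the other 6 subunits were not called.

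Of 12 PRPF genes 3 were higher and 1 lower. PRPF4, a U4/U6 snRNP protein, gave 51.9, 52.0 and 63.3 CPM in pseudopodia, 27.9, 34.0 and 32.0 in cell bodies and 18.3, 17.2 and 19.2 in whole cells (0.83 ± 0.13 against cell body, edgeR adjusted p = 0.000561). Its 3 groups did not overlap, and CDC26 on the other strand held 36.5% of its count. PRPF40B (0.71) and PRPF31 (0.42) were higher and PRPF18 (-0.55) lower, their calls being kept in 18, 13 and 8 of 21 settings. PRPF18 lay just under the threshold (edgeR adjusted p = 0.0492). On the other strand, FMNL3 held 1322% of the count of PRPF40B and TFPT 32.7% of that of PRPF31. PRPF8, the catalytic-core scaffold, and PRPF19, a ubiquitin ligase of the activated spliceosome, were not called, at -0.12 and -0.01. PRPF8 was called lower with GC and length offsets (-0.33, adjusted p = 0.00969) and with voom (-0.34, adjusted p = 0.00427), and PRPF19 took both signs across settings.

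The fractions were next set against whole cells. Both comparisons share the whole cell libraries, so their values are given side by side and are not independent. In pseudopodia against whole cell 35 of 66 genes were higher and 12 lower (53.0% and 18.2%), beside 27.9% higher and 33.1% lower among all genes. In cell body against whole cell 32 were higher and 4 lower (48.5% and 6.06%), beside 18.1% and 20.5%. The 4 lower genes became 2 without cell body replicate 3 or without any 1 whole cell library, and 8 without pseudopodia replicate 3. Median log2 fold changes of the 66 genes were 0.44 and 0.40, beside -0.12 and -0.06 for all genes. On log2(TPM + 0.1) the calls became 20 higher and 22 lower, and 25 higher and 7 lower, with the medians of all genes at -0.56 and -0.23. Relative to the median of all genes, the median of the splicing genes stood 0.31 to 0.75 higher in pseudopodia against whole cell, and 0.30 to 0.61 higher in cell body against whole cell, over the 22 fits.

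Among the Sm core, 6 of 8 genes were higher in both fractions. SNRPB gave 54.96, 51.6 and 68.0 CPM in pseudopodia, 68.0, 58.2 and 55.8 in cell bodies and 26.9, 30.0 and 26.1 in whole cells, a log2 fold change of 1.07 ± 0.14 and 1.13 ± 0.14 against whole cell (edgeR adjusted p = 8.19e-05 and 0.000194). SNRPD1, another ring protein, gave 36.5, 37.0 and 27.3, 25.5, 24.4 and 21.6 and 10.4, 12.1 and 11.2 CPM (1.59 ± 0.15 and 1.09 ± 0.15). SNRPD2, SNRPE, SNRPF and SNRPG were the other 4, and SNRPD3 and SNRPN were not called. The calls of SNRPE and SNRPG in pseudopodia ended on the TPM scale (adjusted p = 0.0819 and 0.198). Pseudogenes of SNRPE and SNRPG drew reads amounting to 9.78% and 10.2% of the parent gene's count in whole cells.

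HNRNPAB, a CArG-box and RNA-transport protein, had the largest cell body difference of any hnRNP gene. Its libraries gave 104, 104 and 117 CPM in pseudopodia, 101, 104 and 107 in cell bodies and 35.2, 37.5 and 40.6 in whole cells. Exons of PHYKPL on the other strand held 28.8% of its count. Both fractions lay above all whole cell libraries and overlapped each other, with log2 fold changes of 1.52 ± 0.12 and 1.46 ± 0.12 (edgeR adjusted p = 1.51e-06 and 7.48e-06). HNRNPC behaved alike at a smaller size (0.85 ± 0.11 and 0.71 ± 0.11; adjusted p = 5.9e-05 and 0.000646). By contrast HNRNPA1 was 1.94 ± 0.11 in pseudopodia and 0.28 ± 0.11 in cell bodies (adjusted p = 2.59e-07 and 0.0649), HNRNPA3 1.60 ± 0.12 and 0.20 ± 0.12, and HNRNPH3 1.27 ± 0.12 and -0.29 ± 0.12. For these 3 genes the cell body was not called against whole cell, though HNRNPA1 was called there in 6 of the 21 alternatives.

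A smaller set was highest in whole cells. PRPF39, a U1-associated protein, gave 2.58, 7.73 and 1.12 CPM in pseudopodia, 10.6, 6.37 and 5.10 in cell bodies and 24.2, 24.6 and 25.2 in whole cells (-2.68 ± 0.59 and -1.75 ± 0.57 against whole cell; edgeR adjusted p = 0.00363 and 0.038). Its whole cell libraries lay within a narrow band above every fraction library, while its pseudopodia libraries spread over more than 3-fold, replicate 2 being highest. FKBP3, on the other strand, held 101% of its count. The cell body call of PRPF39 was lost without the low-count filter (adjusted p = 0.159) and in 5 leave-one-out fits (adjusted p from 0.0866 to 0.13).

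HNRNPH1 and SRSF10 were also highest in whole cells: HNRNPH1 was -1.15 ± 0.14 in pseudopodia and -0.62 ± 0.13 in cell bodies against whole cell (edgeR adjusted p = 3.17e-05 and 0.00459), and SRSF10 -1.81 ± 0.21 and -0.41 ± 0.20 (adjusted p = 2.73e-05 and 0.13). PRPF38B, a factor of the precatalytic spliceosome, was lower in cell bodies, at 11.98, 23.7 and 9.79 CPM against 33.0, 34.1 and 35.4 in whole cells (-1.17 ± 0.37, adjusted p = 0.0345), a call lost in 8 of 21 settings, 6 of them leave-one-out fits (adjusted p from 0.0735 to 0.11). The summed share of nuclear noncoding RNAs was also lowest in pseudopodia and highest in whole cells, as given above. Of these 7 RNAs, 5 were lower and 1 higher in pseudopodia than in cell bodies, SNHG14 being the highest (1.85). Against whole cells 6 were lower in pseudopodia and 1, SNHG14 (0.68), was higher. The part of these RNAs in the values of the splicing genes was not tested. SF3B1 (-0.84), SRSF6 (-0.47), SRSF7 (-0.71), HNRNPA2B1 (-0.49) and HNRNPH2 (-0.31) were called lower in pseudopodia than in whole cells. With GC and length offsets the estimates turned positive, to 0.25, 0.36, 0.28, 0.42 and 0.61, so their order against whole cells depended on that setting. Only HNRNPA2B1 and HNRNPH2 were then called higher (edgeR adjusted p = 0.0138 and 0.00247), the others having no call (adjusted p from 0.0597 to 0.145). HNRNPH2 depended on other settings too, its call of lower being kept in only 6 of 21.

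**Figure D4:**
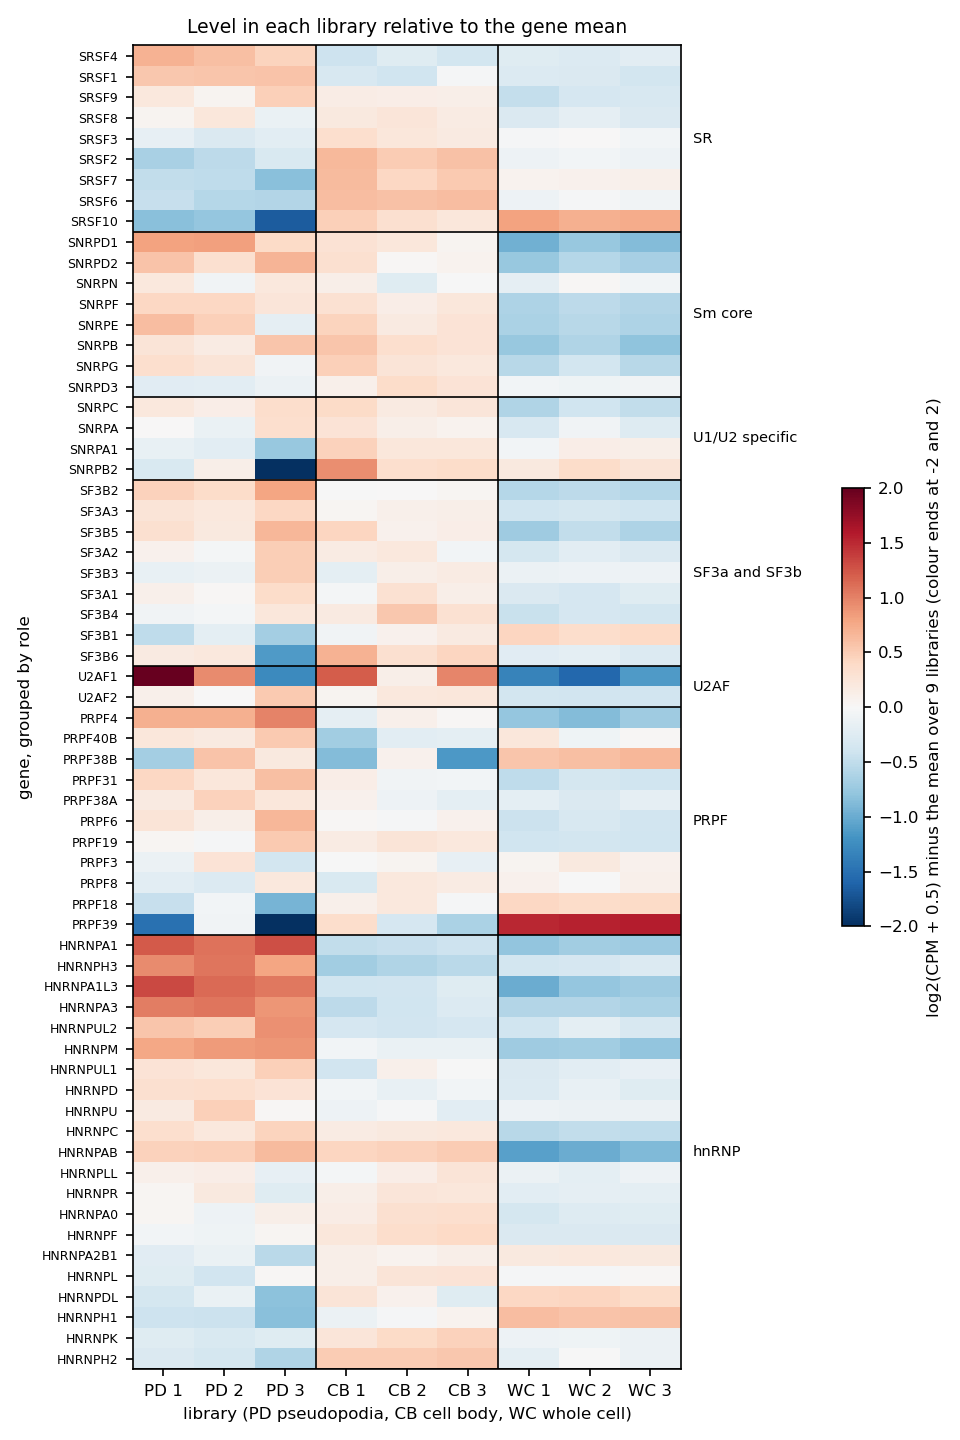
Log2(CPM + 0.5) of each splicing gene drawn, minus its own mean over the 9 libraries (colour, ending at -2 and 2), genes by role and ordered within it by their pseudopodia against cell body fold change (rows), libraries by group (columns); SRSF12, HNRNPCL1 and HNRNPCL3, under 1 TPM, are not shown. Red rows for HNRNPA1, HNRNPH3 and HNRNPA3 in the 3 pseudopodia columns face blue ones for SRSF10, SRSF6 and SRSF7, and PRPF39 is red in whole cells.

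U2AF, which reads the intron's last bases, needs its own account. U2AF2, the large subunit, was higher in both fractions than in whole cells (0.62 ± 0.14 and 0.55 ± 0.14, edgeR adjusted p = 0.00347 and 0.0122), though not in pseudopodia on the TPM scale (0.14, adjusted p = 0.328). U2AF1, the small subunit, had the highest fold changes of all 66 genes, 2.90 ± 0.77 and 2.61 ± 0.76 (adjusted p = 0.00914 and 0.024). They cannot be read as a change of the gene alone, because almost all of its sequence also occurs at a second locus. How reads matching both loci were counted is not stated, and their part in these fold changes was not tested. GRCh38 holds a copy, listed in the files as LOC102724594 (chr21:6484623-6499261) beside U2AF1 (chr21:43092956-43107587), and 96.3% of the 31-base words in U2AF1 transcripts occur in it.

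U2AF1 gave 16.2, 7.23 and 1.18 CPM in pseudopodia, 8.82, 3.88 and 7.46 in cell bodies and 1.10, 0.860 and 1.34 in whole cells. The copy gave 2.01, 2.45 and 3.03, 2.98, 9.07 and 2.31 and 11.9, 2.51 and 9.01 CPM in the same order. Their sum was 10.7 ± 7.04 CPM in pseudopodia, 11.5 ± 1.61 in cell bodies and 8.92 ± 4.99 in whole cells (SD, n = 3), and the groups overlapped in every pair (exact two-sided permutation p = 0.8 between pseudopodia and either other group, and 0.7 between cell bodies and whole cells). The division of counts between the 2 loci differed from library to library, also within a group.

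**Figure D5:**
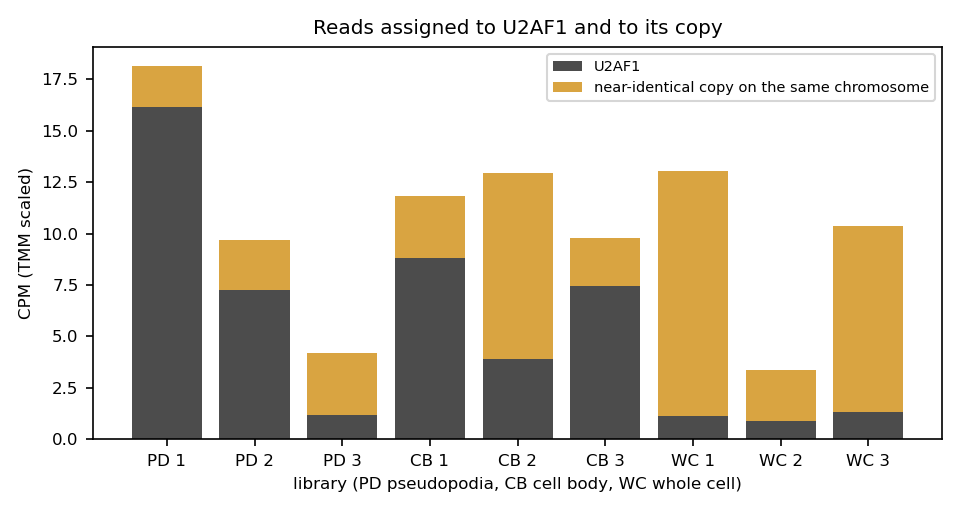
TMM-scaled CPM assigned to U2AF1 (dark) and to its near-identical copy (yellow), stacked, in each of the 9 libraries. U2AF1 alone is near 1 CPM in the 3 whole cell libraries and up to 16.2 in pseudopodia, whereas the stacked height in whole cells, 3.37 to 13.0 CPM, overlaps both fractions.

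Across the 66 genes, 28 followed the order pseudopodia, cell body, whole cell from high to low by group mean, 13 were highest in cell bodies and lowest in whole cells, 10 were highest in cell bodies and lowest in pseudopodia, and 9 ran from whole cells down to pseudopodia. The other 6 had cell bodies lowest. These orders of means were not tested, and they were not counted over all genes. Groups did not overlap in CPM for 38 genes in pseudopodia against cell body (57.6%, beside 47.1% of all genes tested), 53 in pseudopodia against whole cell (80.3% beside 70.0%) and 54 in cell body against whole cell (81.8% beside 64.9%). Replicate spread differed by compartment: the median coefficient of variation of CPM was 14.4% in pseudopodia, 7.71% in cell bodies and 3.65% in whole cells, beside 22.6%, 15.2% and 6.80% for all genes tested. In pseudopodia 4 splicing genes passed 50%, with U2AF1 at 92.0%. In these shares and spreads, the genes set beside the splicing genes were not matched to them by level.

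Splicing factors outside the chosen symbols were read from 8 lists. Of 18 other snRNP and Lsm proteins 5 were higher in pseudopodia and 1 was higher in cell bodies, from SNRNP70 at -0.43 to SART1, a tri-snRNP protein, at 1.57. SART1 gave 197, 192 and 257 CPM in pseudopodia and 73.2, 70.3 and 73.8 in cell bodies, with no overlap. Of 11 U2-associated factors 2 were higher and 9 not called, the highest being RBM17, a U2AF-related protein, at 229, 229 and 226 against 64.7, 60.6 and 63.0 CPM (1.86 ± 0.11, adjusted p = 4.13e-07).

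Of 22 catalytic-step factors 4 were higher and 3 lower, between BCAS2 (-0.98, not called) and CWC27 (1.58). The minor spliceosome had 3 higher and 1 lower of 8, between RNPC3, which joins its U11 and U12 snRNPs (-2.12), and ZRSR2, its 3′ splice site reader (1.94). For the exon junction complex the counts were 4 and 2 of 8, from MAGOHB (-0.70, not called) to CASC3 (1.76). The share of all genes called was 18.6% higher and 19.9% lower, as given above.

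SR protein kinases and importers had 1 higher and 2 lower of 10. CLK1, a nuclear kinase of SR proteins whose own transcript is known to be held in the nucleus, gave 11.7, 11.3 and 5.03 CPM in pseudopodia, 42.3, 28.7 and 26.2 in cell bodies and 81.1, 79.9 and 80.3 in whole cells (-1.79 ± 0.30 against cell body and -3.10 ± 0.32 against whole cell, edgeR adjusted p = 0.0013 and 2.88e-05). SRPK3 was the highest of this list at 0.52, not called. Of 15 snRNP assembly factors 2 were higher and 3 lower, between DDX20 (-0.98) and SMN1 (0.74), neither called. SMN1 has a copy, SMN2, and whether reads were shared between them was not measured. Of 24 other splicing regulators 3 were higher and 5 lower. CELF1, a regulator of splicing and mRNA decay, was the highest at 355, 323 and 388 CPM in pseudopodia and 77.0, 98.0 and 96.8 in cell bodies (1.97 ± 0.13, adjusted p = 1.25e-06). MATR3 was the lowest at -4.64, but its highest level was 2.39 CPM and the table holds a second, overlapping line of that name, so its value is uncertain.

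An oligopyrimidine run at the very start of an mRNA marks many mRNAs of the translation machinery, and the sequence at the annotated start was read for genes that differed between pseudopodia and cell body. RefSeq promoters (GRCh38.p14) matched 59 of the 68 genes by symbol, and HNRNPA1, HNRNPA1L3, HNRNPCL3, PRPF3, PRPF39, SF3B3, SNRPD1 and SRSF2 were among those not matched. Shown 5′ to 3′ on the gene's strand are 50 bases before and 25 from the start for 2 genes that were higher and 2 that were lower in pseudopodia, with capitals marking an oligopyrimidine run where one was found, meaning a C followed by at least 4 bases that are each C or T, lying from 5 bases before to 10 after the start on the gene's strand.
HNRNPH3 (chr10:68331643-68331717, plus strand): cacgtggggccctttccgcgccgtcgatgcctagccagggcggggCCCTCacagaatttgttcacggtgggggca
HNRNPA3 (chr2:177212744-177212818, plus strand): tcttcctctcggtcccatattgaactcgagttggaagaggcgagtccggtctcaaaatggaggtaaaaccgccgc
SRSF7 (chr2:38751470-38751544, minus strand): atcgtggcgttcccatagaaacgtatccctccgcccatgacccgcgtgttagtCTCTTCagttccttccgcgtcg
SRSF10 (chr1:23980303-23980377, minus strand): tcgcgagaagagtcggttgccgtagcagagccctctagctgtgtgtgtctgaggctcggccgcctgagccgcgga
HNRNPH3 (log2 fold change 1.56) and SRSF7 (-1.14) held a run although they lay on opposite sides, and HNRNPA3 (1.40) and SRSF10 (-1.40) held none in this window. The run of HNRNPH3 lay wholly before the annotated start and that of SRSF7 after it, so neither annotated mRNA began with its run. A run counted here thus need not be at the very start of the mRNA. In all, 16 of the 59 matched genes (27.1%) had such a run, beside 21.1% of 27305 promoters. The median log2 fold change in pseudopodia against cell body was 0.19 for the 16 genes with a run and -0.08 for the 42 tested without, beside -0.01 and -0.06 for all genes. This is a description of these letters only.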

How the data were processed

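Bulk RNA of 9 libraries was measured, 3 each of pseudopodia, cell body and whole cell. The deposited table holds raw read counts per gene, made by the authors with featureCounts per the labels' protocols, and the authors also deposited TPM. GRCh38 and DESeq2 are named in the submitters' processing notes. Not given in the sources used here were the aligner, annotation and strand setting. In the count table, 1 line without a gene name was left out.

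Counts were tested with edgeR 4.0.16 (limma 3.58.1, R 4.3.3): filterByExpr, TMM factors, quasi-likelihood F-tests over all 9 libraries, Benjamini-Hochberg adjustment over 19426 genes and a threshold of 0.05. The SE was derived from the test, as the size of the log2 fold change divided by the square root of F. Both SE and p-value of each comparison thus draw on the spread of all 3 groups. That spread was unequal, edgeR's common coefficient of variation being 32% in pseudopodia, 17.6% in cell bodies and 5.08% in whole cells. Only the main edgeR fit was tested on simulated data first. In those data a gene's spread did not differ between groups, as it does in the real libraries. DESeq2 1.42.0, limma on log2(TPM + 0.1) or log2(TPM + 1), other filters and scalings, GC and length offsets and leave-one-out fits were alternatives. Single values such as shares and sums were compared by exact two-sided permutation tests (SciPy 1.17.1), whose smallest p here is 0.1. Exon overlaps and shared 31-base words came from GENCODE 29. Exons of another counted gene overlapped 27 of the 68 genes, in 16 of them at 10% or more of the gene's count, and not all are named above.

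The genes and lists were chosen with earlier results of these data known. Named were fixed anchor genes, except PRPF4B, which these data list as PRP4K and which the chosen symbols therefore missed. The 5 highest and 5 lowest of each comparison, and the highest and lowest of each list, were named too. Other called genes, the 8 ratio pairs, the sum of U2AF1 with its copy and the shares without HNRNPA1 were chosen after their values were seen. The precision of a level is set by the spread of 3 libraries rather than by depth, 55469030 to 83894938 counts. Values of 1 of the genes are not reported here, though it is counted in the totals.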

Additional observations from a re-analysis of the deposited data

How the results depend on the processing

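Of the named genes, 15 of 42 kept direction and call in all 21 settings for pseudopodia against cell body, 23 of 52 for pseudopodia against whole cell and 25 of 47 for cell body against whole cell. The unit, model and gene-level offsets moved the balance of calls over all genes: 48.2%, 45.7% and 46.9% of calls were higher in the 3 comparisons, 27.4%, 25.1% and 32.4% on log2(TPM + 0.1), 28.1%, 24.99% and 30.9% on log2(TPM + 1), and 53.7%, 57.5% and 60.8% with GC and length offsets. With DESeq2 size factors the shares were 49.2%, 47.7% and 49.1%, and with upper-quartile factors 49.9%, 42.6% and 37.4%. The cause of the changes below was not tested. With limma on log2(TPM + 0.1) the values were 9 higher genes, 27 lower genes, median -0.30, HNRNPC -0.15, SF3A1 -0.25, SNRPN -0.066, U2AF1 -0.50, U2AF2 -0.23 (pseudopodia against cell body) and 20 higher genes, 22 lower genes, median -0.024, HNRNPA0 -0.15, HNRNPU -0.12, SF3A1 -0.010, SF3B4 -0.037, SNRPN -0.20 (pseudopodia against whole cell) and 7 lower genes, median 0.22, HNRNPD -0.046, SNRPN -0.14, SRSF1 -0.11 (cell body against whole cell). With limma on log2(TPM + 1) the values were 9 higher genes, 27 lower genes, median -0.24, HNRNPC -0.15, SF3A1 -0.24, SNRPN -0.044, U2AF1 -0.20, U2AF2 -0.23 (pseudopodia against cell body) and 20 higher genes, 22 lower genes, median -0.023, HNRNPA0 -0.15, HNRNPU -0.12, SF3A1 -0.010, SF3B4 -0.037, SNRPN -0.13 (pseudopodia against whole cell) and 8 lower genes, median 0.21, HNRNPD -0.045, SNRPN -0.089, SRSF1 -0.11 (cell body against whole cell). With GC and length offsets the values were 25 higher genes, PRPF19 0.030, SF3A1 -0.046, SRSF3 0.051, U2AF2 -0.019 (pseudopodia against cell body) and 5 lower genes, median 0.74, HNRNPA2B1 0.42, HNRNPH2 0.61, HNRNPK 0.79, PRPF38B 0.37, SF3B1 0.25, SRSF3 0.82, SRSF6 0.36, SRSF7 0.28 (pseudopodia against whole cell) and median 0.57, HNRNPA2B1 0.48, HNRNPU 0.89, PRPF8 0.048, SF3B1 0.39, SNRPN -0.027 (cell body against whole cell). With limma-voom and sample weights the values were 24 lower genes, PRPF38B -0.0044, SF3A1 -0.085, U2AF2 -0.10 (pseudopodia against cell body) and 21 lower genes, median 0.38 (pseudopodia against whole cell) and 10 lower genes, PRPF8 0.067, SNRPN -0.018 (cell body against whole cell). With only the 6 libraries compared the values were 10 higher genes, SF3A1 -0.021 (pseudopodia against cell body) and 9 lower genes, HNRNPU 0.027, PRPF8 0.0062 (cell body against whole cell). In DESeq2 the values were PRPF19 0.0074 (pseudopodia against cell body) and HNRNPU 0.028, PRPF8 0.013 (cell body against whole cell). With DESeq2 size factors in edgeR the values were PRPF19 0.0075 (pseudopodia against cell body) and HNRNPU 0.028, PRPF8 0.013 (cell body against whole cell). With upper-quartile factors the values were PRPF19 0.025 (pseudopodia against cell body) and median 0.39 (pseudopodia against whole cell) and 7 lower genes, median 0.31, SNRPN -0.043, SRSF1 -0.016 (cell body against whole cell). At a filter of 5 CPM in 3 libraries the values were SF3A1 -0.0091 (pseudopodia against cell body) and median 0.32 (pseudopodia against whole cell) and median 0.32, SRSF1 -0.0094 (cell body against whole cell). With SRSF5 and SRSF11 added the values were median 0.39 (pseudopodia against whole cell). Without the low-count filter the values were 2 lower genes, median 0.47, HNRNPU 0.070, PRPF8 0.055 (cell body against whole cell). Without mitochondrial and ribosomal protein genes the values were HNRNPU 0.017, PRPF8 0.0029 (cell body against whole cell). Leaving out 1 library at a time gave PRPF19 -0.21 to 0.088, SF3A1 -0.070 to 0.13, SNRPB -0.19 to 0.059, U2AF1 -0.67 to 0.80, U2AF2 -0.11 to 0.16 (pseudopodia against cell body) and median 0.41 to 0.50 (pseudopodia against whole cell) and number of lower genes 2 to 8, HNRNPU -0.033 to 0.076, PRPF8 -0.10 to 0.14, SNRPN -0.060 to 0.18, SRSF1 -0.022 to 0.15 (cell body against whole cell). Pairing by replicate number was not seen, though these values cannot exclude it. Correlations of same-numbered libraries, taken as deviations from their group means, ran from -0.0807 to 0.0901. Of 9 libraries, 2 correlated best with their own number. With the replicate number as a block, 14 genes were higher and 14 lower for pseudopodia against cell body, 33 and 11 for pseudopodia against whole cell, and 29 and 4 for cell body against whole cell. Depth limits SRSF12, HNRNPCL1 and HNRNPCL3, which stood under 1 TPM.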

Other observations

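The 2 SR genes left out of the set are given here as values. SRSF5 gave 275.5, 280.2 and 249.9 CPM in pseudopodia, 351, 359 and 351 in cell bodies and 238, 241 and 249 in whole cells, and was lower in pseudopodia than in cell bodies (-0.40 ± 0.11, edgeR adjusted p = 0.0119). SRSF11 gave 13.6, 30.0 and 14.5, 46.6, 67.1 and 31.3 and 163, 157 and 168 CPM, with every whole cell library above every fraction library (-3.07 ± 0.36 for pseudopodia and -1.75 ± 0.35 for cell body against whole cell, edgeR adjusted p = 9.06e-05 and 0.0043).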
